A study of Rattus norvegicus with 138 samples.

Results

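Tendon and cartilage lineage genes were followed in rat muscle after volumetric muscle loss (VML), the surgical removal of more tissue than a muscle can rebuild. The set was chosen by symbol: Sox9, Acan, Comp, Chad, Runx2, Scx, Mkx and Tnmd. Of these 8 genes, 7 have a row among the 16181 complete symbols of the deposited table, and Mkx was not analysed here. RNA was sequenced from whole tibialis anterior (TA) muscle of inbred male Lewis rats, about 4 months old. In operated rats a 6-mm punch was taken from the middle of the left TA muscle, which was then left without repair (NoRepair) or filled with an autologous minced muscle graft (MMG), finely cut muscle of the same animal. Injured muscles and the opposite, contralateral muscles were taken at 3, 7, 14 or 28 days post injury (DPI). Within each arm some rats were labelled as running (Run) and the others as not running (NoRun). Control muscles were the left and right TA of 2 rats labelled sham at day 0. The study's text calls its controls unoperated.

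Of 138 libraries, 13 with fewer than 7000 symbols above 1 TPM (transcripts scaled for length and library total) were dropped, and 9 more were not grouped because their labels contradict each other. The other 116 libraries gave 114 muscles of 78 rats: 4 control, 34 contralateral and 76 injured muscles. The control rats carry numbers of another series (TS4) than all operated rats (TS5), so a difference from control cannot be told apart from a difference between those series. TPM does not show the read depth of each library, and the numbers of muscles set the precision. Because whole muscle was sequenced, fewer cells of a type and less RNA per cell cannot be told apart.

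Tendon cells are specified by the transcription factor Scx, and their mature state is marked by Tnmd, a transmembrane glycoprotein of tendon. Cartilage cells depend on Sox9, which drives the genes of cartilage matrix such as Acan, the large proteoglycan aggrecan, while Runx2 is the master regulator of bone formation and of late cartilage cells. Comp, cartilage oligomeric matrix protein, and Chad, the leucine-rich repeat protein chondroadherin, are matrix proteins found in both tendon and cartilage. Mkx is a homeobox regulator of tendon collagen genes.

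TPM is scaled per transcript length, so levels can be compared between genes. In control muscle Scx stood apart at 23.1 to 34.0 TPM. Chad at 0.6 to 1.71 TPM, Sox9 at 0.85 to 1.43 TPM, Tnmd at 0.45 to 1.49 TPM and Comp at 0.44 to 1.79 TPM overlapped one another. Runx2 lay below them at 0.02 to 0.16 TPM, and Acan was listed at 0 in all 4 control muscles. The plot of each gene's level by muscle shows all these values.

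**Figure D1:**
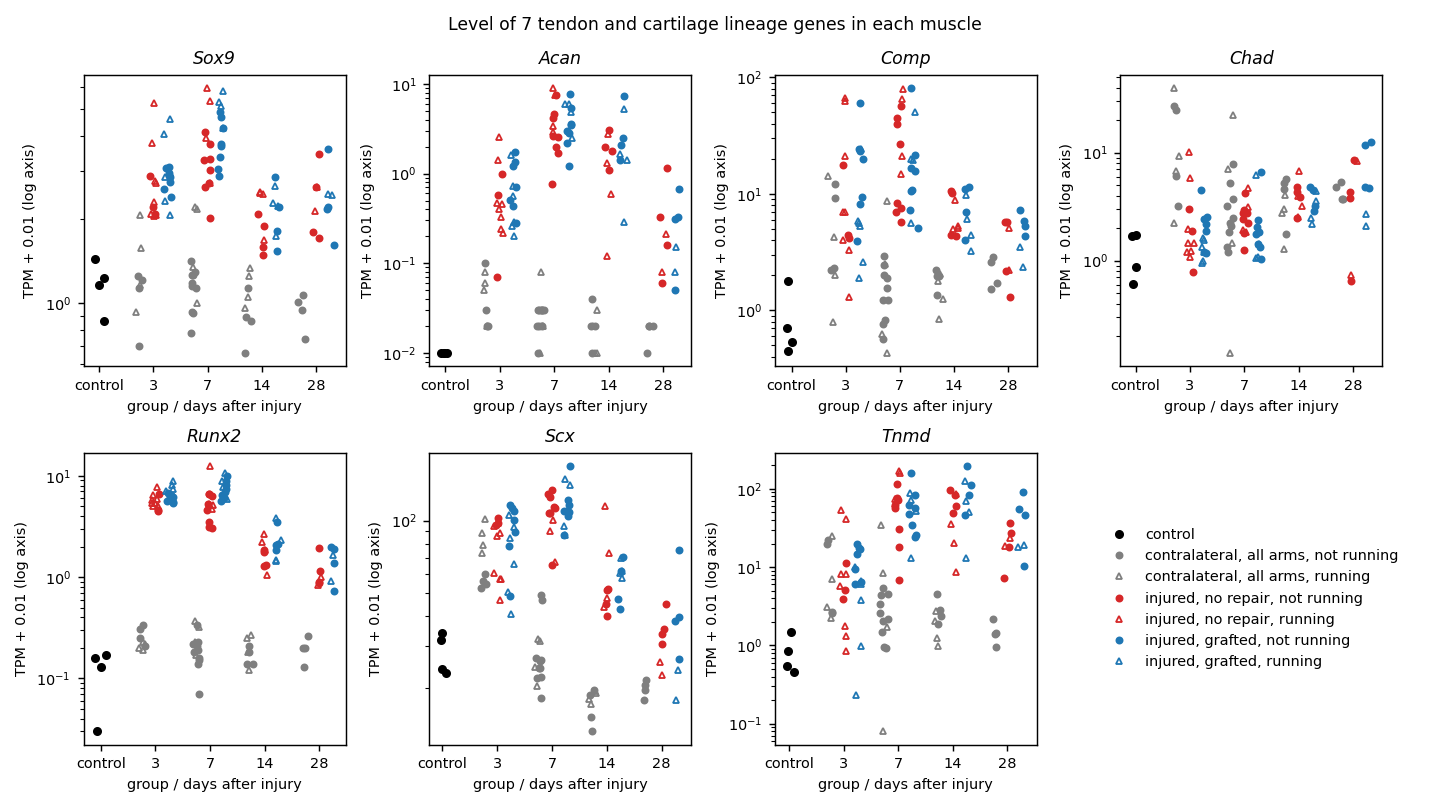
Each panel plots 1 gene, with TPM + 0.01 on a log axis against control and days after injury; each point is 1 muscle, filled for rats that did not run and open triangles for running rats. Runx2 in all 76 injured muscles lies above its highest contralateral value, 0.36 TPM, whereas Chad in injured muscle never exceeds its highest contralateral value, 39.8 TPM.

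The promoters of the 3 genes that varied together in contralateral muscle (Tnmd, Chad and Comp) are shown as the 250 bases before the annotated start, in the gene's direction, from RefSeq on build GRCr8, which is not the build used for the deposited values. E-boxes (CANNTG, the motif class bound by Scx and other helix-loop-helix factors, which reads the same on both strands) are in capitals. They lie at chrX:101350182-101350431 (plus strand), chr10:80008795-80009044 (plus strand) and chr16:19089549-19089798 (minus strand).
Tnmd: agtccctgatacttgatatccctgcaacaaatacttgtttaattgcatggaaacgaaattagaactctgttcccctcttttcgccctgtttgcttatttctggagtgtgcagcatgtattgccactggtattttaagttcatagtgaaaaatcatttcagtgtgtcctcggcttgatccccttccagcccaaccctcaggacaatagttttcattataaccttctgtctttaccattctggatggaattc
Chad: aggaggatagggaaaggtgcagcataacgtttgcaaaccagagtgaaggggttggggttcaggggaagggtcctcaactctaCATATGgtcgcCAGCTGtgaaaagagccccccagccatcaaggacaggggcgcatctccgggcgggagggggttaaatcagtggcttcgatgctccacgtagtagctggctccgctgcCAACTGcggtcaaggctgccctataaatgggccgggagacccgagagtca
Comp: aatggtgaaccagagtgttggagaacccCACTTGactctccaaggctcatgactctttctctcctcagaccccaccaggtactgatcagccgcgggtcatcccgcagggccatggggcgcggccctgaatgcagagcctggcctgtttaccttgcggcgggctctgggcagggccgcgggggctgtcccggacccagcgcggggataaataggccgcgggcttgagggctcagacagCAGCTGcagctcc
The Chad window holds 3 E-boxes, at 168, 157 and 50 bases before the start, and the Comp window holds 2, at 222 and 13 bases. The Tnmd window holds 0. Of all 33469 promoter windows of this length, 65.5% hold at least 1 E-box, so a match describes the letters and identifies no binding site.

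Differences were estimated with limma on log2(TPM + 1), a scale that understates the change of genes near or below 1 TPM. Genes were tested if their mean exceeded 1 TPM in at least 1 group, so genes low in control entered through groups where they were higher. Acan and Runx2 entered only through injured groups. A gene was called changed at an adjusted p under 0.05 and a log2 difference beyond 1. Most expressed genes stood higher in injured than in control muscle on this scale: without repair, the median log2 difference over all 11213 genes tested was 0.97, 0.92, 0.53 and 0.52 on days 3, 7, 14 and 28. After scaling each library by size factors these medians were 0.09, 0.08, 0.02 and 0.04. The share of called genes that were higher than control then moved from 92% to 59.4%, from 95% to 60.3%, from 97.9% to 72.5% and from 99% to 78% on those days. With the graft it moved from 91.4% to 57.3%, from 94.4% to 59.2%, from 97.6% to 66.4% and from 99% to 73.7% on the same days. Against contralateral muscle it moved from 84.5% to 60.5%, from 95.8% to 59%, from 99.2% to 73.2% and from 98.3% to 82.9%. Values after this scaling are therefore given in the comparison of unrepaired muscle with control below, and elsewhere where they change a call.

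Cell type markers moved with these differences. The summed TPM of 10 muscle fibre markers was 205247 to 255260 in control muscle and 21706 to 80606 in all injured muscles at 3 DPI. That of 9 fibroblast markers was 76.2 to 246 in control, 4388 to 14100 at 3 DPI and 6355 to 25129 at 7 DPI, and that of 9 macrophage and leukocyte markers was 20.4 to 42.9 in control and 3886 to 7209 at 3 DPI. None of the fibroblast or macrophage markers was at 0 throughout a group. The part of these shifts in the results below was not tested. Mature cartilage and bone cells were checked in the same way: 4 of 5 mature cartilage markers have a row, their sum reached at most 1.2 TPM in any injured muscle, and Matn1 and Hapln1 were at 0 in all control muscles. The 5 bone cell markers summed to 0.51 to 1.03 TPM in control, where Phex was at 0 throughout, and to 0.9 to 14.2 TPM in injured muscle. Summed Schwann cell markers (5 genes) were 7.59 to 12.8 TPM in control and 14.6 to 122 TPM in injured muscle, and epidermis markers (3 genes, of which Krt5 and Krt14 were at 0 in all control muscles) 0.46 to 2.66 and 2.61 to 5.9 TPM.

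The comparison of unrepaired injured muscle with control asked how VML alone moved these genes. This and the other comparisons by limma used non-running rats unless running is named. In unrepaired muscle of running rats at 3 DPI, left out here, Tnmd was 0.83 to 52.93 TPM and Comp 1.29 to 66.67 TPM. Both ranges overlapped control. Tnmd, Comp, Runx2 and Scx were called higher at 3 DPI, joined by Acan at 7 DPI. The called members on day 14 were Tnmd, Comp, Runx2, Acan and Chad, and on day 28 they were Tnmd and Chad. The counts were 4, 5, 5 and 2 of the 7 genes, all higher. With size factors they were 2 at 3 DPI and 1 at 28 DPI, where 24.7% and 11.4% of all genes were called higher. The count at 28 DPI was 5 with a pseudocount of 0.1 TPM and 1 to 4 with 1 muscle left out. Over all genes tested 53.1%, 48.6%, 25.8% and 21.5% were called on the same days, and the members' counts are read against these shares. The members' median log2 difference was 1.79, 1.94, 1.19 and 0.96, against the medians over all genes given above.

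Among the regulators, Runx2 gave the tightest separation. It was measured at 4.62, 6.66 and 4.47 TPM in the 3 unrepaired muscles at 3 DPI, and at 6.53, 5.21, 6.26, 6.6, 4.61, 3.5, 3.08 and 3.07 TPM at 7 DPI, against 0.12, 0.16, 0.15 and 0.02 TPM in control. At 14 DPI it was 1.31, 1.28, 1.83 and 1.74 TPM and at 28 DPI 0.86, 1.15, 0.88 and 1.94 TPM. The groups did not overlap on any day. The log2 difference was 2.47 ± 0.18 (SE) at 3 DPI with n = 3 against 4 and adjusted p = 8.2e-19 by limma, and 2.35 ± 0.14 at 7 DPI with n = 8 against 4 and adjusted p = 7.27e-22. It was 1.19 ± 0.17 at 14 DPI, and 0.96 ± 0.17 at 28 DPI, below the fold limit although the adjusted p was 1.2e-06. With size factors Runx2 was still called at 3, 7 and 14 DPI, at 2.05, 1.97 and 1.12.

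Scx, the tendon regulator, was already present in control muscle at 23.93, 23.06, 31.59 and 34.0 TPM. In unrepaired injured muscle it was 98.07, 96.05 and 102.33 TPM at 3 DPI and 65.45, 112.48, 133.72, 128.93, 107.72, 113.43, 107.64 and 125.55 TPM at 7 DPI, higher in every muscle. The log2 differences were 1.79 ± 0.26 at 3 DPI and 1.94 ± 0.21 at 7 DPI (limma, adjusted p = 8.58e-09 and 1.15e-12), and with size factors they were 0.67 and 0.87, which ends both calls by the fold limit. At 14 DPI Scx was 51.59, 39.96, 44.84 and 51.13 TPM, and at 28 DPI 30.37, 35.2, 44.91 and 33.56 TPM, where it overlapped control. Neither day was called, at 0.73 ± 0.24 and 0.35 ± 0.24, and with size factors the 28 DPI value was -0.31. In RefSeq, Scx (chr7:110056897-110059283, GRCr8) lies inside the larger gene Bop1 (chr7:110052716-110076529), a ribosome biogenesis factor, and Kallisto at its default settings, as used by the authors, makes no use of strand. Bop1 itself was at 11.3 to 14.7 TPM in control, 25.9 to 40.5 TPM at 3 DPI and 13.5 to 19.2 TPM at 28 DPI over all injured muscles. Whether reads of Bop1 were assigned to Scx was not measured, so the Scx values are uncertain to an unknown extent.

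Sox9, the cartilage regulator, was higher in all 76 injured muscles than in any control muscle, but by little. It was 2.2, 2.86 and 2.09 TPM at 3 DPI and 3.0, 2.7, 3.73, 4.14, 3.29, 2.62, 3.28 and 2.01 TPM at 7 DPI without repair, against 1.15, 1.22, 1.43 and 0.85 TPM in control. The log2 difference was 0.65 ± 0.16 and 0.91 ± 0.13 (limma, adjusted p = 2.04e-04 and 3.32e-09), under the fold limit, and it was 0.35 ± 0.15 at 14 DPI and 0.62 ± 0.15 at 28 DPI. With size factors the direction turned at 3 DPI (-0.064) and 14 DPI (-0.055), and the 7 and 28 DPI values were 0.21 and 0.22. With a pseudocount of 0.1 TPM the 7 DPI value was 1.33 (adjusted p = 2.09e-09), which passes the fold limit.

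Tnmd showed the largest differences of the set from 7 DPI on. Without repair it was 11.24, 3.95 and 5.05 TPM at 3 DPI, and 115.37, 76.81, 56.26, 72.78, 62.83, 6.87, 17.88 and 30.33 TPM at 7 DPI, against 0.83, 0.54, 1.49 and 0.45 TPM in control. At 14 DPI it was 48.74, 83.8, 95.13 and 60.71 TPM and at 28 DPI 18.25, 27.17, 7.29 and 36.67 TPM, so none of these unrepaired muscles overlapped control. The log2 differences were 2.0 ± 0.67, 4.58 ± 0.54, 5.31 ± 0.62 and 3.51 ± 0.62, with adjusted p = 5.14e-03, 2.29e-11, 7.99e-11 and 2.17e-06 by limma. With size factors the first of these was 1.31 with adjusted p = 0.0597, no longer called, while the values of the later days were 3.88, 4.99 and 3.20.

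Comp rose with a wide spread. It was 17.79, 4.14 and 4.46 TPM at 3 DPI and 57.31, 45.01, 39.89, 26.62, 8.34, 5.71, 7.51 and 7.02 TPM at 7 DPI, against 0.69, 0.44, 1.79 and 0.52 TPM in control. The log2 differences were 2.17 ± 0.67, 3.36 ± 0.54 and 2.13 ± 0.62 at 3, 7 and 14 DPI (limma, adjusted p = 2.59e-03, 9.97e-08 and 2.03e-03). At 28 DPI the muscles held 1.3, 5.67, 2.15 and 5.76 TPM, 1 of them within the control range, and the difference of 1.25 ± 0.62 was not called (adjusted p = 0.0662). With size factors Comp was 1.47, 2.66, 1.80 and 0.93 on the 4 days, called on the same 3.

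Acan, listed at 0 in every control muscle, was detected in every injured muscle. It was 0.56, 0.98 and 0.06 TPM at 3 DPI, 7.46, 4.55, 4.2, 2.62, 2.52, 0.75, 1.68 and 1.98 TPM at 7 DPI, 1.08, 1.96, 3.04 and 1.76 TPM at 14 DPI and 0.15, 0.32, 0.05 and 1.14 TPM at 28 DPI. It was called higher at 7 and 14 DPI (limma, adjusted p = 4.09e-09 and 2.4e-05), and no fold is given against a group at 0. With size factors it was called on the same 2 days (adjusted p = 1.85e-08 and 3.9e-06).

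Chad was called on the later days only. It was 3.01, 0.77 and 1.86 TPM at 3 DPI, within or near the control values of 1.69, 0.6, 1.71 and 0.86 TPM. At 14 DPI it was 4.29, 3.9, 4.76 and 2.47 TPM and at 28 DPI 0.64, 8.51, 3.78 and 4.27 TPM. The log2 differences of 1.14 ± 0.44 and 1.04 ± 0.44 on these days were called (limma, adjusted p = 0.0166 and 0.0287). In a fit of the compared groups alone Chad at 28 DPI was not called (adjusted p = 0.0931), while Comp on that day was (adjusted p = 0.0242). Both Chad calls were lost with size factors (0.74 and 0.65), with control muscles averaged per rat (adjusted p = 0.0647 and 0.0943) and without the second control muscle (1.00 with adjusted p = 0.0518, and 0.90 with adjusted p = 0.0801). The 28 DPI call was also lost without the fourth control muscle (0.97) and without the second (0.68), the third (1.01) or the fourth (0.96) injured muscle. With size factors Chad at 3 DPI turned to -0.32.

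**Figure D2:**
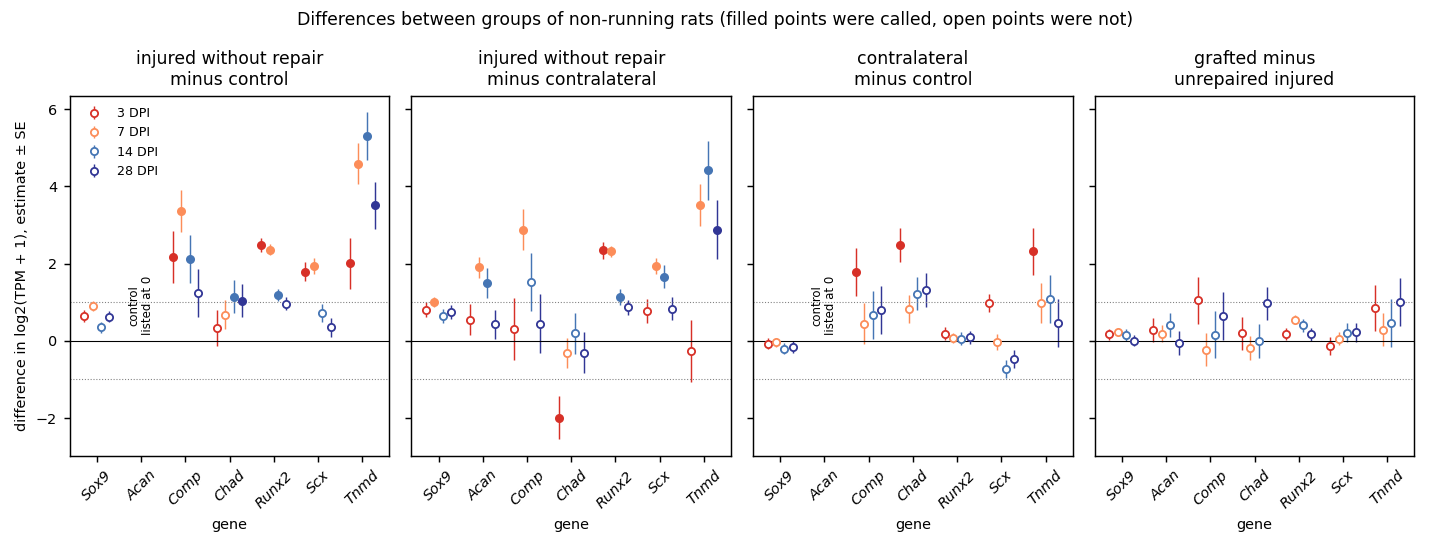
Points give the difference in log2(TPM + 1) with its SE for each gene in 4 comparisons of non-running rats, coloured by day. Acan is left out of the panels against control. Filled points were called and dotted lines mark the fold limit of 1. Without repair Tnmd at 14 DPI stands highest above control, at 5.31, and the panel of grafted against unrepaired muscle holds no filled point. Grafted muscle against control (Tnmd 5.76 at 14 DPI) and values with size factors are not drawn. With size factors Sox9 and Chad at 3 DPI, Sox9 at 14 DPI and Scx at 28 DPI were below 0 without repair against control.

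Other genes of the same pathways, from lists of known function, were read against the same control. List genes low in control were tested only if another group exceeded 1 TPM. Counts among tested list genes therefore lean toward genes that rose, as do the shares over all genes. They describe the tested genes and allow no conclusion about a whole list. Of 17 tested tendon and ligament genes, 12, 15, 13 and 11 were called higher at 3, 7, 14 and 28 DPI and 0 lower, where 48.8%, 46.1%, 25.2% and 21.3% of all genes tested were called higher and 4.26%, 2.44%, 0.553% and 0.214% lower. With size factors 11, 12, 11 and 11 were called higher and 2, 2, 1 and 0 lower, where 24.7%, 21.9%, 15.7% and 11.4% of all genes were called higher and 16.9%, 14.4%, 5.96% and 3.21% lower. Their median log2 difference at 7 DPI was 3.61, against 0.92 over all genes tested, and with size factors 2.54 against 0.08. Tnc (tenascin C, a matrix glycoprotein of developing and injured tendon) rose from 0.205 ± 0.11 TPM (SD, n = 4) in control to 161 ± 34.8 TPM (SD, n = 8) at 7 DPI, a log2 difference of 7.05 ± 0.33. Col14a1, a fibril-associated collagen, rose from 2 ± 0.73 to 111 ± 33.7 TPM. Prg4, the lubricating proteoglycan lubricin, and Eya2, a transcriptional coactivator, rose least among those called, at 1.52 ± 0.17 and 1.24 ± 0.14.

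Of the 28 symbols listed for cartilage, 21 have a row and 8 were tested, of which 2, 5, 4 and 3 were called higher on the 4 days and 0 lower (2, 3, 3 and 2 higher and 2, 2, 0 and 0 lower with size factors). Over all genes 48.8%, 46.1%, 25.2% and 21.3% were called higher. The 5 called at 7 DPI lay at 0.14 to 0.78 TPM in control and were tested only because other groups exceeded 1 TPM. Listed genes that stayed low were left out, so no conclusion is drawn from the list's share of 8 genes. With size factors its 2 of 8 at 3 DPI is near the 24.7% of all genes called higher. Col11a1, a fibrillar collagen shared with tendon, rose by 4.33 ± 0.28 at 7 DPI, and Pth1r, the parathyroid hormone receptor of growth plate and bone, by 2.38 ± 0.17. Col11a2 (1.36 ± 0.28) and Hapln3 (1.13 ± 0.13), a link protein, were the lowest of those called. Col2a1, the main collagen of cartilage, was not tested because of its low level and reached at most 1.16 TPM in any muscle. Hapln1 and Matn1, further cartilage matrix genes, reached at most 0.06 and 0.03 TPM.

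Of 12 tested bone genes, 6, 6, 5 and 5 were called higher and 0 lower, and 5 were called higher on each day with size factors. At 3 and 7 DPI 6 of 12 is near the 48.8% and 46.1% of all genes called higher, and at 14 and 28 DPI 5 of 12 lies above 25.2% and 21.3%. With size factors 5 of 12 lies above the shares of all genes on each day (24.7%, 21.9%, 15.7% and 11.4%). The largest were Col1a1, the main collagen of bone and scar alike, at 7.38 ± 0.34 at 7 DPI, and Spp1 (osteopontin), which macrophages also make, at 7.20 ± 0.52. The lowest of those called were Runx3 (1.48 ± 0.13), a factor of the same family, and Omd (1.10 ± 0.18), the proteoglycan osteomodulin. Bglap (osteocalcin), made by osteoblasts, was not called (0.55, adjusted p = 0.21), and Sp7, the osteoblast regulator that acts with Runx2, reached at most 0.56 TPM. Of 15 tested signals, 9, 10, 8 and 8 were called higher and 0 lower (6, 5, 6 and 7 higher and 1, 2, 0 and 0 lower with size factors), where 48.8%, 46.1%, 25.2% and 21.3% of all genes were called higher, or 24.7%, 21.9%, 15.7% and 11.4% with size factors. Among them Tgfb1, an inducer of Scx, rose from 3.42 to 56.3 TPM at 7 DPI (3.66 ± 0.16). Chrd, an antagonist of bone morphogenetic proteins, rose by 3.97 ± 0.21, and Bmp2 (1.30 ± 0.12) and Tgfb3 (1.21 ± 0.15) were the lowest of those called.

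**Figure D3:**
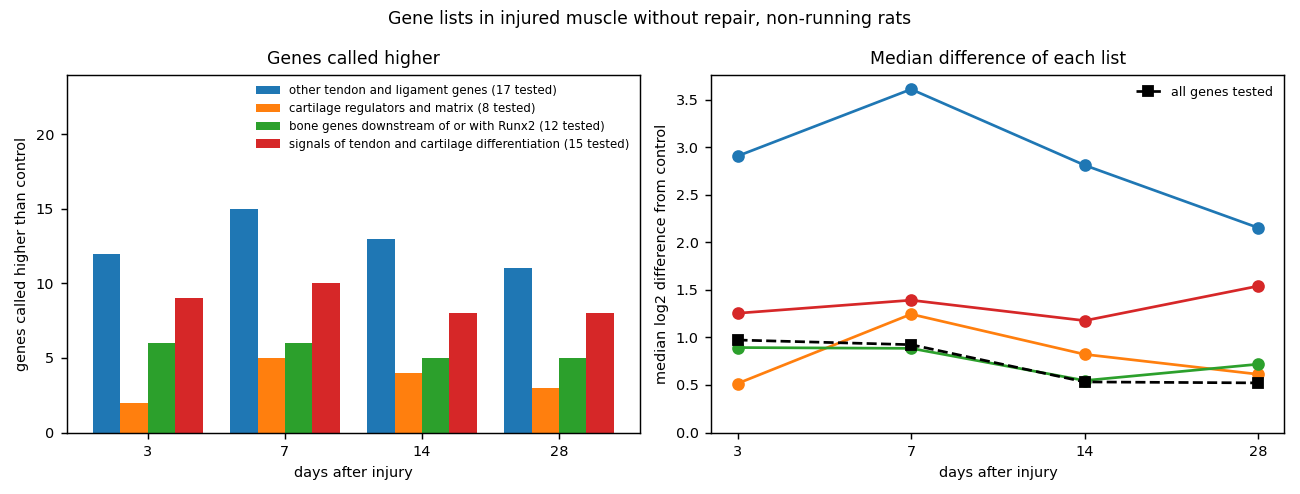
Bars give the number of genes of each list called higher in unrepaired injured muscle than in control by day, and lines give the median log2 difference of each list with that of all genes tested as a dashed line. The tendon and ligament list has a median of 3.61 at 7 DPI, whereas the bone list (0.89) lies beside all genes (0.92); with size factors these medians are 2.54, 0.36 and 0.08, and the tendon list at 7 DPI has 12 genes higher and 2 lower.

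Grafted muscle compared with control gave 4, 6, 5 and 4 called members on the 4 days, all higher, where 59.2%, 54.6%, 32.9% and 25.8% of all genes were called. At 7 DPI Sox9 was among them, at 2.87 to 4.87 TPM in 8 muscles and a log2 difference of 1.14 ± 0.13, which fell to 0.34 with size factors and lost the call. Tnmd reached 46.7 to 195 TPM at 14 DPI, a log2 difference of 5.76 ± 0.62. At 28 DPI Chad was 11.78, 12.56, 4.81 and 4.71 TPM, all above control, a log2 difference of 2.01 ± 0.44 (limma, adjusted p = 5.21e-05). Its 14 DPI call (1.14 ± 0.44) was lost with control averaged per rat (adjusted p = 0.06), without the second control muscle (1.00, just under the fold limit) and with size factors (0.63). Scx lost its calls at 3 and 7 DPI with size factors (0.38 and 0.81). Runx2 at 28 DPI was 0.72, 1.99, 1.37 and 1.87 TPM, a log2 difference of 1.13 ± 0.17. These comparisons share the control muscles with those above.

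The direct comparison of grafted with unrepaired injured muscle called 0 members on each of the 4 days, where 0.0178%, 0.0892%, 0.0268% and 0% of all genes were called by limma. At an unadjusted p under 0.05 the members counted 0, 2, 1 and 1 of 7, where 18%, 27.4%, 5.53% and 1.41% of all genes passed the same limit. Runx2 at 7 DPI was the only member with an adjusted p under 0.05. It was 8.09, 6.86, 7.45, 6.02, 6.46, 5.68, 9.92 and 8.8 TPM with the graft against 6.53, 5.21, 6.26, 6.6, 4.61, 3.5, 3.08 and 3.07 TPM without, and the groups overlapped. The log2 difference was 0.55 ± 0.12 (adjusted p = 0.00226), below the fold limit, and in a fit of these groups alone the adjusted p was 0.114. Within rats 11 to 24 the medians were 7.16 and 6.4 TPM, within the first 4 rats numbered above 100 they were 6.07 and 4.05 TPM, and within the last 4 they were 9.36 and 3.08 TPM. At 14 DPI Runx2 was 2.11, 3.52, 1.84 and 2.08 TPM with the graft and 1.31, 1.28, 1.83 and 1.74 TPM without, which did not overlap, but the difference of 0.40 ± 0.16 had adjusted p = 0.728. Chad at 28 DPI (0.97 ± 0.44, adjusted p = 0.995), Comp at 3 DPI (1.05 ± 0.61) and Tnmd at 28 DPI (1.00 ± 0.62) had the largest estimates, with large errors.

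The contralateral muscle offered a second reference from operated rats. In unrepaired injured muscle the members called higher than it were Runx2 at 3 DPI, 6 members at 7 DPI (all but Chad), Acan, Runx2, Scx and Tnmd at 14 DPI and Tnmd at 28 DPI. Others were higher without overlap and with an adjusted p under 0.05 but missed the fold limit. At 3 DPI these were Sox9 (0.80 ± 0.19, adjusted p = 1.7e-04) and Scx (0.76 ± 0.31, adjusted p = 0.024), and at 14 DPI Sox9 (0.65 ± 0.18, adjusted p = 0.00158). At 28 DPI they were Sox9 (0.75 ± 0.18, adjusted p = 5.45e-04), Runx2 (0.87 ± 0.20, adjusted p = 4.31e-04) and Scx (0.83 ± 0.29, adjusted p = 0.0162). With size factors Scx was 0.20 at 3 DPI (adjusted p = 0.58) and 0.38 at 28 DPI (adjusted p = 0.29), and Sox9 at 14 DPI was 0.33 (adjusted p = 0.0545). All genes tested gave 38.6%, 47.9%, 21.3% and 13.5% called. At an unadjusted p under 0.05 by limma they gave 73.6%, 88.8%, 67.6% and 56.8%, and the members 4, 6, 5 and 4 of 7. Only 2 contralateral muscles were compared at 3, 14 and 28 DPI. The share of all genes without overlap was not counted, so the separation is not read as particular to these members. Tnmd was higher by 3.52 ± 0.54, 4.41 ± 0.76 and 2.88 ± 0.76 at 7, 14 and 28 DPI. Sox9 at 7 DPI passed the fold limit narrowly (1.00 ± 0.13), and fell below it without the contralateral muscle at 0.77 TPM (0.94) or the one at 0.92 TPM (0.98) and with size factors (0.32). All 4 of these contralateral muscles came from rats numbered above 100, as did 4 of the 8 injured muscles. When the model also held a term for that range Sox9 was 0.99, below the fold limit, and Comp was 2.17 in place of 2.88. Comp at 14 DPI (1.52 ± 0.76, adjusted p = 0.074) was called in a fit of the compared groups alone (adjusted p = 0.0108). Scx at 7 DPI (1.94 ± 0.21) was 0.87 with size factors, and Chad, not called on that day, was then called lower at -1.12. At 3 DPI neither Tnmd (-0.27 ± 0.80) nor Comp (0.30 ± 0.80) was called, and Comp turned to -0.16 with size factors. Chad was called lower in injured muscle at 3 DPI, by -1.99 ± 0.56 (adjusted p = 0.00149). That call rested on 1 contralateral muscle: the 2 held 26.88 and 3.2 TPM, and without the first of them the difference was -0.62 with adjusted p = 0.4. In a fit of these groups alone its adjusted p was 0.0777. Without the same muscle Tnmd at 3 DPI turned to 0.98, and leaving out the second contralateral muscle (-0.70) or the first injured muscle (-0.31) turned Comp.

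Contralateral muscle itself was not at the control level on every day. Averaged over the 8 non-running contralateral groups, Chad was higher than control by 1.46 ± 0.34 (limma, adjusted p = 0.00142), the only member called where 1.44% of all genes were. With the control muscles averaged per rat, so that control counted 2 rats, Chad was no longer called (1.43, adjusted p = 0.0556). Tnmd (1.21, adjusted p = 0.0586) was called with size factors (1.21, adjusted p = 0.048) and in a fit of these groups alone (adjusted p = 0.0407). Taken by day, a split added after the values were seen, 3 members were called at 3 DPI and 0 at 7, 14 and 28 DPI. The shares over all genes were 7.19%, 1.05%, 1.08% and 0.535%, and on the 3 later days 1, 2 and 1 of 7 members had an unadjusted p under 0.05, where 28.3%, 20.9% and 16% of all genes did. With size factors Chad was called at 14 DPI (1.32, adjusted p = 0.0236) and at 28 DPI (1.33, adjusted p = 0.0442) as well. At 3 DPI the called members were Chad (2.49 ± 0.44), Tnmd (2.31 ± 0.62) and Comp (1.77 ± 0.62). The 4 contralateral muscles at 3 DPI split: rats 10 and 14 held 12.1 and 9.15 TPM of Comp, 26.88 and 24.73 TPM of Chad and 19.49 and 22.28 TPM of Tnmd. Rats 13 and 17 held 2.22 and 2.28 TPM of Comp, 6.13 and 3.2 TPM of Chad and 2.59 and 2.64 TPM of Tnmd. Summed fibroblast markers in contralateral muscle were 592 to 1453 TPM at 3 DPI and 280 to 2172 TPM later, and their part in these levels was not tested. With the control averaged per rat, Comp gave 1.74 with adjusted p = 0.05 and was not called.

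Scx in contralateral muscle followed the day. All 8 muscles at 3 DPI, running rats included, were at 52.2 to 102 TPM, above every control muscle, whereas the 26 muscles of later days were at 13.1 to 48.7 TPM. At 3 DPI the 4 muscles of running rats held 73.4 to 102 TPM and the 4 of non-running rats 52.2 to 59.9 TPM, without overlap, a difference that was not tested. The 3 DPI difference from control in non-running rats was 0.97 ± 0.24 (adjusted p = 5.16e-04), just below the fold limit, and 0.41 with size factors (adjusted p = 0.182). At 14 DPI the contralateral muscles, at 13.1 to 19.5 TPM, all lay below control, with a log2 difference of -0.72 ± 0.24 (adjusted p = 0.0505). The 4 muscles at 28 DPI, at 17.8 to 21.6 TPM, lay below control as well. Summed macrophage and leukocyte markers in contralateral muscle were 91.2 to 237 TPM at 3 DPI and 59 to 206 TPM later, and muscle fibre markers 143636 to 186722 TPM and 190713 to 234170 TPM. Their part in the Scx levels was not tested. Bop1 in contralateral muscle was 11.6 to 19.8 TPM at 3 DPI and 9.73 to 13.3 TPM later.

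Across the 34 contralateral muscles of 34 rats, Comp, Chad and Tnmd varied together. The pattern was noticed in these same values before it was computed. The permutation p-values here and for Scx below therefore describe it and are no independent test. The permutations also mixed days and arms, and the share over all gene pairs was not computed. The Comp and Chad levels on the log2(TPM + 1) scale had Pearson r = 0.959 and Spearman rho = 0.896, each with permutation p = 1e-05, the smallest the 100000 draws can give, and 2e-05 after adjustment over 6 pairs. Comp and Tnmd had r = 0.906 and rho = 0.764, and Chad and Tnmd r = 0.92 and rho = 0.834, with the same permutation p. Without the 2 muscles farthest from the median of the first-named gene of each pair, r was 0.938, 0.871 and 0.887. Within rats 1 to 32 (3 and 7 DPI, n = 14), rats above 100 at 7 DPI (n = 8) and rats of 14 DPI (n = 8), r for Comp and Chad was 0.973, 0.932 and 0.891. For Comp and Tnmd it was 0.95, 0.966 and 0.711, and for Chad and Tnmd 0.962, 0.916 and 0.868. The 4 muscles of rats 73 to 76 were too few for a value.

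Scx did not share this pattern within ranges of rat numbers. Its pooled r was 0.403 with Comp (permutation p = 0.0175), 0.462 with Chad (permutation p = 0.00582) and 0.466 with Tnmd (permutation p = 0.00529), or 0.0175, 0.00698 and 0.00698 after adjustment, and rho was 0.243, 0.362 and 0.45 (permutation p = 0.164, 0.0353 and 0.00826, or 0.164, 0.0424 and 0.0124 after adjustment). Within rats above 100 at 7 DPI these were -0.33, -0.19 and -0.12, and within rats 1 to 32 they were 0.391, 0.48 and 0.328, and within rats of 14 DPI 0.0864, 0.323 and 0.17. Without the 2 muscles farthest from the median of the other gene, the pooled r of Scx was 0.185 with Comp, 0.288 with Chad and 0.422 with Tnmd. These muscles were picked for each pair and not by their Scx level. The relations with Comp and Chad were weaker without them.

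**Figure D4:**
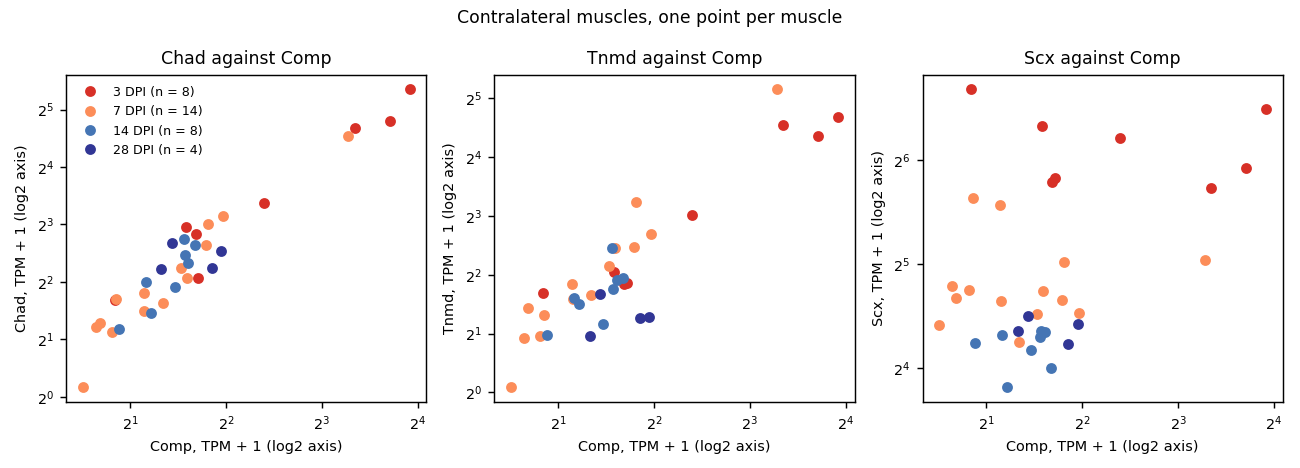
Each point is 1 contralateral muscle, with TPM + 1 on log2 axes for Chad, Tnmd and Scx against Comp, coloured by day. Chad and Tnmd climb with Comp (r = 0.959 and 0.906), whereas Scx separates the 8 muscles at 3 DPI, at 52.2 to 102 TPM, from the rest.

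The course in time without repair was followed between neighbouring days. From 3 to 7 DPI Acan rose by 1.36 ± 0.30 and Tnmd by 2.58 ± 0.59 (limma, adjusted p = 2.32e-04 and 3.89e-04), 2 of 7 members where 7.44% of all genes were called. From 7 to 14 DPI Comp fell by 1.23 ± 0.54, Runx2 fell by 1.17 ± 0.14 and Scx fell by 1.22 ± 0.21 on the log2 scale, 3 of 7 members against 6.93% of all genes, while Tnmd was 0.72 ± 0.54 and was not called. The adjusted p of Comp was 0.0374, and that call was lost without the first (-1.05, adjusted p = 0.118) or the fourth (-1.05, adjusted p = 0.11) muscle of 14 DPI and in the fit of these groups alone (adjusted p = 0.0922). With size factors Runx2 (-0.85) and Scx (-0.82) kept their adjusted p under 0.05 but not the fold limit, and Comp (-0.86) kept neither. With all libraries kept 0 members were called for this step. Over all genes the share of calls that were higher moved from 10.6% to 61.4%. From 14 to 28 DPI 0 members were called against 0.606% of all genes, with 2 at an unadjusted p under 0.05 where 14.5% of all genes were: Tnmd (-1.80 ± 0.62, adjusted p = 0.119) and Acan (-1.08 ± 0.31, adjusted p = 0.0505). Acan was called with size factors (-1.08, adjusted p = 0.0153), and both were in a fit of these groups alone (adjusted p = 0.0458 for Tnmd and 0.0429 for Acan). The injured rats of 14 DPI and those of 28 DPI (73 to 88) carry numbers that no other day shares, so these later steps cannot be told apart from differences between ranges of rat numbers. The unrepaired muscles at 3 DPI all came from rats of low number, while those at 7 DPI also held rats numbered above 100. The step from 3 to 7 DPI therefore mixes ranges as well.

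At 7 DPI, where rats 11 to 24 and rats numbered above 100 were sampled, the levels differed between these ranges. Some arms at 3 DPI also held rats of more than 1 range, which were not compared here. Among non-running injured muscles of both arms, Comp was 15.6 to 81.4 TPM in rats 11 to 24 and 10.7 TPM or less in rats numbered above 100, with no overlap in either arm. In a comparison added after these values were seen, the rats above 100 differed by -1.98 ± 0.28 for Comp (limma, adjusted p = 0.00193) and by -1.5 ± 0.36 for Tnmd (adjusted p = 0.00861), 2 of 7 members where 0.606% of all genes were called. Acan (-0.89 ± 0.22) and Runx2 (-0.29 ± 0.11) had an adjusted p under 0.05 below the fold limit, and Scx (0.18 ± 0.14) and Sox9 (-0.10 ± 0.11) did not. In all, 4 of 7 members and 36.8% of all genes had an adjusted p under 0.05. The labels do not say what these ranges stand for. Comp at 14 DPI without repair, at 4.35, 10.18, 10.58 and 4.44 TPM, overlapped the 7 DPI rats above 100 (5.71 to 8.34 TPM) but not rats 11 to 20 (26.6 to 57.3 TPM). Runx2 at 14 DPI (1.28 to 1.83 TPM) lay below both ranges at 7 DPI (3.07 to 4.61 and 5.21 to 6.6 TPM).

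**Figure D5:**
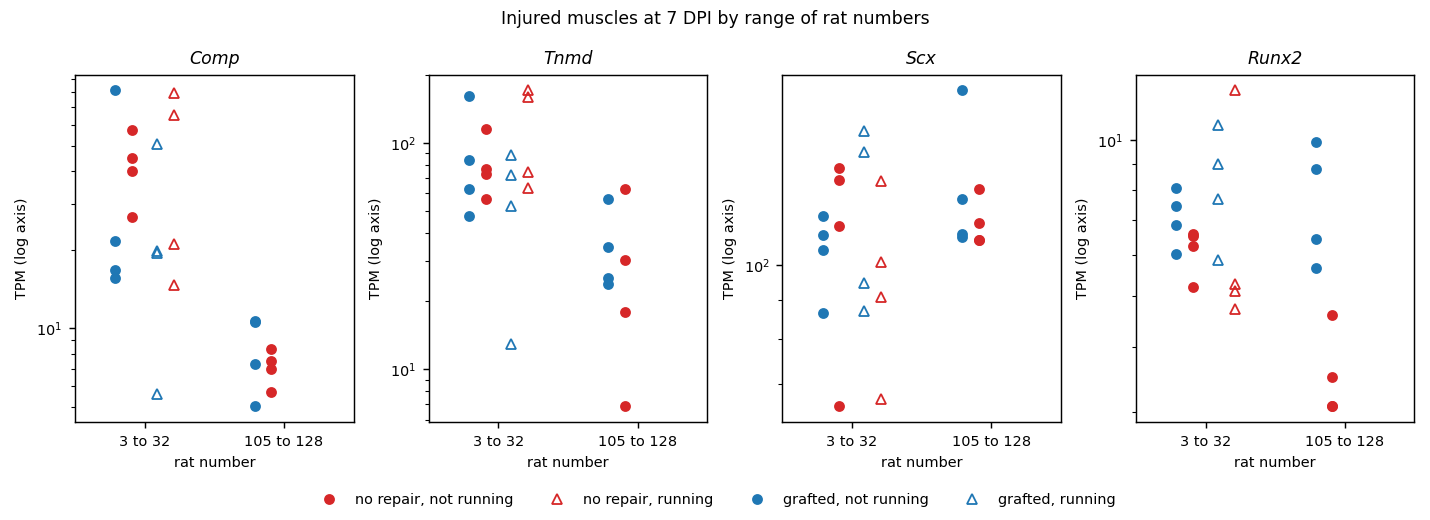
Each point is 1 injured muscle at 7 DPI, with TPM on a log axis against the range of rat numbers, red without repair and blue grafted, open triangles for running rats. Comp of non-running rats is 15.6 TPM or more in the lower range and 10.7 TPM or less in the higher, whereas Scx of the ranges overlaps.

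Running was compared with not running in injured muscle, averaged over both arms. It called 0 members on each day, where 0.0177%, 0%, 0% and 0.309% of all 11328 genes tested were called by limma; at an unadjusted p under 0.05 the members counted 1, 3, 2 and 1 of 7, where 16%, 15.8%, 5.17% and 13.7% of all genes passed. The nearest was Scx at 28 DPI. It was 25.56, 22.58, 17.7 and 23.63 TPM in running rats and 26.5 to 75.5 TPM in 8 muscles of non-running rats, which did not overlap, with a log2 difference of -0.77 ± 0.22 (adjusted p = 0.0527). Sox9 at 7 DPI was 0.38 ± 0.10 higher with running (adjusted p = 0.174), where all running rats were numbered 3 to 32. A test of whether the graft acted differently with running called 0 members, where 0.00883%, 0%, 0% and 0.00883% of all genes were called by limma, and 1, 0, 0 and 0 of 7 members had an unadjusted p under 0.05, where 4.21%, 2.9%, 2.27% and 0.697% of all genes did. That 1 was Comp at 3 DPI, at -1.87 ± 0.89 with adjusted p = 0.898.

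The tested genes whose levels were most like each member over the 114 muscles were named by Pearson's r on the log2 scale, as a description of muscles that share days and injury. For Tnmd they were Kera (keratocan, a small leucine-rich proteoglycan of cornea and tendon, 0.933), Gas2 (0.923) and Fmod (fibromodulin, 0.918). For Runx2 they were Ptk7 (0.989), Arl4c (0.989) and Emilin1 (0.989), and for Scx Tspan15 (0.936), Josd2 (0.929) and Dlgap4 (0.925). Acan was closest to Megf6 (0.945), Cyp46a1 (0.939) and Slitrk6 (0.936), Comp to C1qtnf7 (0.883), Rbp4 (0.879) and Ccl21 (0.876), and Sox9 to Gem (0.889), Hes1 (0.889) and Acta2 (0.886). Chad had no close match: its highest were Gsn (0.682), Bmp7 (0.677) and Ackr2 (0.66). Within the set the highest r was 0.867, between Sox9 and Runx2, followed by 0.817 between Acan and Tnmd, and Chad reached at most 0.275, with Tnmd.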

How the data were processed

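Bulk RNA sequencing of whole TA muscle was analysed for 138 libraries. The authors quantified reads with Kallisto at default settings against the rat genome build 6.0 annotation and deposited TPM per gene symbol; the submitters' processing notes also name DESeq. Counts were not used here. Libraries of 1 muscle were averaged. Models were fitted with limma 3.58.1 (R 4.3.3; eBayes with trend, Benjamini-Hochberg adjustment) on log2(TPM + 1), with 1 model over non-running rats and control (68 muscles, 17 groups, 11213 genes) and 1 over all rats, for running, (114 muscles, 31 groups, 11328 genes). The fits were tested on simulated data. Members and gene lists were chosen with earlier results of these data known. Named list genes were the 2 highest and 2 lowest called per list at 7 DPI, and those most alike the 3 highest Pearson r; Col2a1, Hapln1, Matn1, Bglap, Sp7 and Bop1 were named after their values were seen. Injured and contralateral muscles of 1 rat are paired by animal: over 22 pairs the mean correlation of their deviations was 0.0936, 10 pairs exceeding 0.1, against -0.0147 for other rats. Alternatives were another pseudocount, no filter, size factors, all libraries kept, a rat block, library as sample, other sample sets, a number-range covariate and leaving out single muscles. The split of contralateral muscle by day, the correlations between genes in contralateral muscle, the split by rat number and all libraries with size factors were added after seeing the data.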

Additional observations from a re-analysis of the deposited data

Results flagged for a closer look

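Of 111 tests of a gene in a group of 4 to 10 muscles, 8 had a highest or lowest muscle separated from the rest by more than Dixon's critical value; chance flags about 1 in 20 such groups. Low muscles were Sox9 at 1.67 TPM in 1 running, unrepaired injured muscle at 14 DPI, Acan at 0.01 TPM in 1 non-running, unrepaired contralateral muscle at 7 DPI (the others held 0.02 TPM), and Scx at 65.45 TPM in 1 non-running, unrepaired injured muscle at 7 DPI, where the other 7 held 107.64 TPM or more. High muscles were Comp at 8.78 TPM in 1 running, unrepaired injured muscle at 14 DPI, Runx2 at 12.46 TPM in 1 running, unrepaired injured muscle at 7 DPI, and Scx at 48.69 TPM in 1 grafted rat's contralateral muscle at 7 DPI. Chad was high at 6.62 TPM in 1 non-running grafted injured muscle and at 6.16 TPM in 1 running grafted injured muscle, both at 7 DPI.

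Of the 9 ungrouped libraries, 5 held Sox9, 6 Acan, 8 Comp, 9 Chad, 6 Runx2, 1 Scx and 5 Tnmd above the highest control muscle. Their highest values were 2.69 TPM for Sox9, 0.16 TPM for Acan, 4.31 TPM for Comp, 6.36 TPM for Chad, 0.94 TPM for Runx2, 34.76 TPM for Scx and 36.87 TPM for Tnmd.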

How the results depend on the processing

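Sign changes were counted for differences from control, from contralateral muscle and between days, and for graft and running differences with an unadjusted p under 0.05; other graft and running differences were not counted. Of 18 such differences whose sign changed under an alternative, 0 were called as reported. Counts of called members that moved by over 1.5 times are given next, and the cause was not tested. Calls over all genes also depend on the setting, so these counts are not read as results about the members alone. For unrepaired injured muscle against control at 28 DPI the count of 2 became 5 with a pseudocount of 0.1 TPM, 4 with adjusted p alone, and 1 with size factors, with all libraries kept, with all groups in the model, with control averaged per rat and with all libraries and size factors. At 3 DPI the count of 4 was 2 with size factors. With size factors 24.7% of all genes were called higher and 16.9% lower at 3 DPI, and 11.4% and 3.21% at 28 DPI. Against contralateral muscle the count at 3 DPI was 4, 4 and 1 (pseudocount, adjusted p alone, compared groups alone) in place of 2, and at 28 DPI it was 4 with the pseudocount and with adjusted p alone in place of 1. Contralateral against control gave 3 with the pseudocount, 2 with size factors, 2 with the groups alone, and 0 with control averaged per rat and with all libraries and size factors, in place of 1. By day it gave 1 at 7, 14 and 28 DPI with the pseudocount and 1 at 14 and 28 DPI with size factors, in place of 0, and 1 at 3 DPI with all libraries and size factors, in place of 3. From 7 to 14 DPI the 3 calls became 0 with size factors and with all libraries kept, and from 14 to 28 DPI 0 became 1, 1 and 2 (pseudocount, size factors, groups alone). The graft at 7 DPI gave 1 with adjusted p alone in place of 0.

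Of the differences counted, these changed sign with size factors: against control without repair Sox9 (-0.064) and Chad (-0.32) at 3 DPI, Sox9 (-0.055) at 14 DPI and Scx (-0.31) at 28 DPI, with the graft Sox9 (-0.016) and Chad (-0.26) at 3 DPI, Chad (-0.23) at 7 DPI and Scx (-0.18) at 28 DPI, and against contralateral Comp (-0.16) at 3 DPI and Chad (-0.31) at 14 DPI. Among them Scx from 3 to 7 DPI was -0.21 with all libraries kept, and with size factors added Sox9 for the graft at 7 DPI was -0.34 and Runx2 from 3 to 7 DPI 0.17.

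With 1 muscle left out, counts ranged from 1 to 4 (unrepaired against control, 28 DPI), from 1 to 2 (against contralateral at 3 DPI, and contralateral against control) and from 0 to 1 (14 to 28 DPI). Differences that changed sign ranged from -0.70 to 1.30 for Comp and from -1.52 to 0.98 for Tnmd against contralateral at 3 DPI. Chad against contralateral ranged from -0.61 to 0.033 at 7 DPI, from -0.39 to 0.79 at 14 DPI and from -0.67 to 0.17 at 28 DPI, and from -0.46 to 0.38 between 14 and 28 DPI. Scx in contralateral against control ranged from -0.15 to 0.032 and Runx2 from 3 to 7 DPI from -0.21 to 0.035.

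With the rat as a replicate block no call changed and 0 of 32 counts moved: Tnmd against contralateral at 7 DPI was 3.52 and Comp 2.89. The block is a pairing by animal. TPM does not show the read depth of each library, so a TPM near 0 cannot be told from absence.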

Other observations

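In 8 running libraries of 28 DPI the title and the source name give opposite muscles. The 4 titled as contralateral held 9.62 to 36.87 TPM of Tnmd, 0.62 to 0.94 TPM of Runx2 and 0.03 to 0.16 TPM of Acan. The 4 titled as injured held 0.71 to 1.46 TPM of Tnmd, 0.1 to 0.21 TPM of Runx2 and 0 to 0.01 TPM of Acan. Sox9 did not overlap, at 1.69 to 2.69 TPM in those titled as contralateral and 1.01 to 1.53 TPM in those titled as injured. Comp, Chad and Scx overlapped between these sets. In the same order Comp was at 2.21 to 4.31 and 1.63 to 2.97 TPM. Chad was at 2.83 to 3.85 and 2.91 to 6.36 TPM, and Scx at 20.73 to 34.76 and 19.96 to 28.91 TPM.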
